A study of Mus musculus and Homo sapiens with 41 samples.

Results

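RNA-seq of granulocyte-monocyte progenitors (GMPs) was compared between Zbtb16 lu/lu and WT mice, gene by gene. Both groups were mouse C57BL/6 bone marrow cells that had reconstituted lethally irradiated hosts: Cd45-2 donor marrow, WT or homozygous for the luxoid (lu) loss-of-function allele of Zbtb16, was transplanted into C57BL/6 Cd45-1 recipients, and GMPs were sorted as Lineage-, c-Kit+, Sca-1-, Cd34+ and FcγR+ cells. Each library is thus RNA of progenitors that had regrown in a transplanted host. The table holds 2 libraries per genotype, while the labels list 1 sample per genotype, and the study's methods mention more RNA extractions than the libraries used here. The libraries were used as replicates, and the tests measure the spread between these libraries. Of 53756 genes listed, 20531 reached a normalized count of 10 in 2 or more libraries and were compared. One date was shared by a WT and a Zbtb16 lu/lu library in the column names; these are called WT-1 and lu/lu-1, and the libraries of the other dates WT-2 and lu/lu-2. Values are normalized counts and are given in the order WT-1, WT-2, then lu/lu-1, lu/lu-2.

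Zbtb16 encodes PLZF, a transcription factor with a BTB domain and zinc fingers that mostly represses its targets by recruiting co-repressors and histone deacetylases. GMPs are the marrow progenitors that give rise to neutrophils and monocytes, and they are recognised by transcripts of the primary granule proteins, such as Mpo, Elane, Prtn3 and Ctsg, together with Kit, Cd34 and Fc receptor genes. The study concerns PLZF and enhancer activity in myeloid progenitors and their aging. The comparison here asks which transcripts differ in GMPs of transplanted marrow when PLZF is inactive.

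The 4 libraries held 37562999 to 40170636 reads on genes. All 17 GMP markers passed the filter in both genotypes, with Mpo, myeloperoxidase, at 477326, 483375, 552003 and 543288. The summed GMP markers were 842904 to 848730 in WT and 959176 to 976676 in Zbtb16 lu/lu. The 2 Zbtb16 lu/lu libraries were close to each other, with a median absolute log2 difference of 0.11 over the 13863 genes with a mean of at least 100. The 2 WT libraries differed by 0.22, as much as the libraries of different genotypes did (0.18 to 0.21). More genes differed by over 2-fold between WT-1 and WT-2 (344) than between lu/lu-1 and lu/lu-2 (40).

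Of 9 B cell and 10 T and NK cell markers, 3 each passed the filter. Pf4 and Ppbp, platelet factor genes of megakaryocytes, were highest in WT-2 (216, 1306, 96.6 and 486 for Pf4, and 2.98, 212, 5.14 and 16.1 for Ppbp). The summed megakaryocyte markers were 2246 to 6265 in WT and 1800 to 3337 in Zbtb16 lu/lu, and none of the 7 tested separated the genotypes. Of 11 erythroid markers 1 was lower in both Zbtb16 lu/lu libraries, and of 9 tested stem and multipotent progenitor markers none separated the genotypes. In bulk RNA, fewer cells of a type and less RNA per cell cannot be told apart.

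Zbtb16 (GRCm38 chromosome 9, 48654297 to 48836222) was at 705 and 828 in WT and at 369 and 269 in Zbtb16 lu/lu GMPs. The transcript of the mutated gene was thus lower in both mutant libraries but still present in each. The log2 fold change was -1.27 (SE 0.20) with an adjusted p = 0.310 in edgeR's quasi-likelihood test and 4.5e-05 in DESeq2's Wald test. Within the shared date the log2 ratio was -0.93, and between the other libraries -1.62.

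Across the 20531 genes, edgeR called 0 genes higher and 0 lower at a false discovery rate of 8% (0% of genes tested in each direction). The smallest adjusted p was 0.310. At an unadjusted p under 0.05, edgeR's quasi-likelihood test gave 1070 genes higher and 937 lower in Zbtb16 lu/lu. limma-trend called 0 genes, with 1130 higher and 898 lower at the same unadjusted level. DESeq2's Wald test on the same reads called 210 genes, 152 higher (0.74% of genes tested) and 58 lower (0.282%), and gave no adjusted p for 5573 genes. Of its higher calls 44 passed 2-fold, and of its lower calls 6. In all 210 the mutant and WT libraries did not overlap. Such a separation is common, because 4462 genes (21.7%) were higher and 4543 genes (22.1%) lower in both mutant libraries than in both WT libraries. These percentages are the background for each list below. The plot of fold change against mean count shows where the DESeq2 calls lie.

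**Figure D1:**
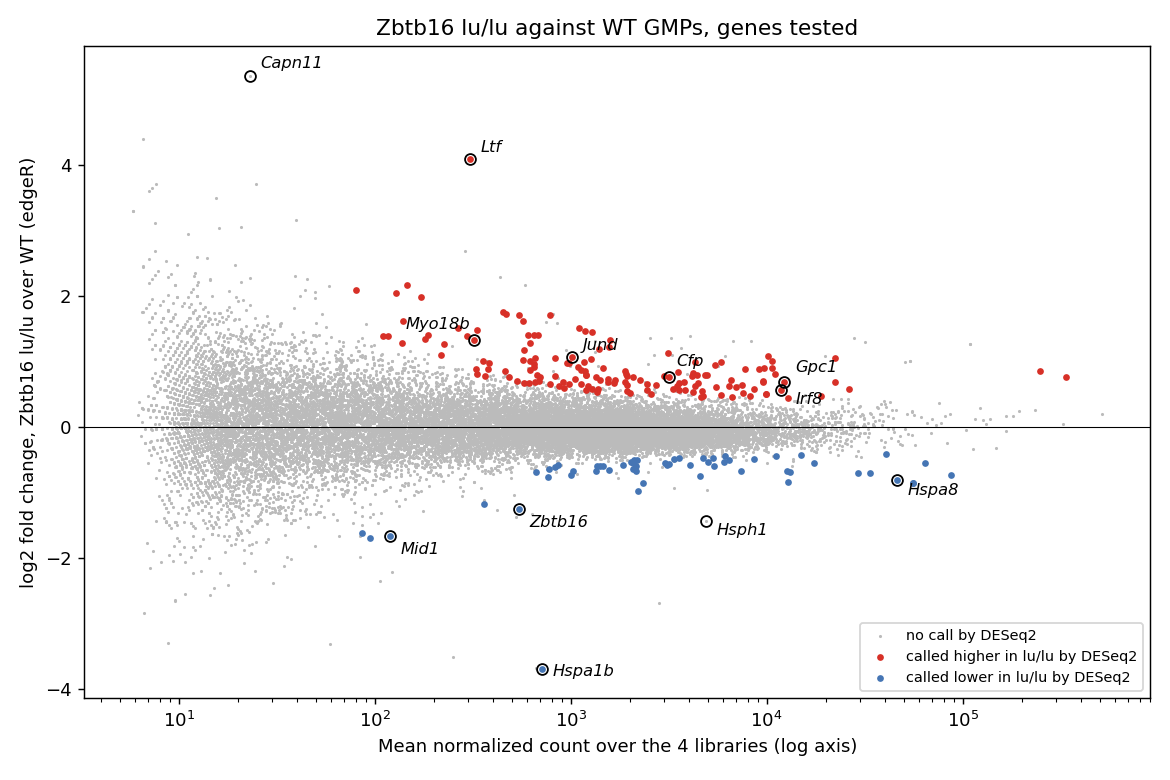
Each point is 1 of the 20531 genes, with its mean normalized count over the 4 libraries (log axis) and its edgeR log2 fold change of Zbtb16 lu/lu over WT; coloured points are the 152 higher and 58 lower DESeq2 calls, and circles mark named genes. Ltf and Capn11 stand at the top, Hspa1b at the bottom, and Hsph1, with a log2 fold change of -1.43, has no DESeq2 call.

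The 15 named genes with the smallest p among those higher in Zbtb16 lu/lu each had an edgeR adjusted p of 0.310, and none passed the threshold. DESeq2 called 14 of them, with adjusted p from 9.9e-06 for Jund to 0.049 for Ltf. First by p was Jund, a subunit of the AP-1 transcription factor, at 719, 595, 1326 and 1407 (log2 fold change 1.06, SE 0.15). Both mutant libraries lay above both WT libraries. With offsets for GC content and length the Jund difference was 0.40. The antisense gene Gm11175 lies within Jund on the opposite strand, and its values moved with it (416, 315, 836 and 925). The strand setting of the counting is not given in the sources used here, so reads of overlapping genes on opposite strands cannot be told apart.

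Several of the named genes act at the plasma membrane or restrain receptor signalling. Dok3, an adaptor that dampens immune receptor signals, was at 1502, 1382, 2472 and 2439 (0.77, SE 0.12). Matk, a kinase that inhibits Src family kinases, was at 1699, 1725, 2719 and 2908 (0.72, SE 0.12). In both genes the libraries of a genotype lay close together and the genotypes were apart. Gpc1, a heparan sulfate proteoglycan of the glypican family, was at 9156, 9735, 14767 and 15355 (0.67, SE 0.11). With GC and length offsets the differences of Matk and Gpc1 were 0.45 and 0.41.

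Genes of the actin and myosin cytoskeleton were also among them. Myo18b, an unconventional myosin, was at 183, 183, 447 and 470 (1.32, SE 0.19), and its difference was 1.12 with GC and length offsets. Gsn, gelsolin, which severs actin filaments, was at 599, 701, 1131 and 1406 (0.96, SE 0.16). Evl, an Ena/VASP protein that promotes actin assembly, was at 334, 421, 781 and 746 (1.01, SE 0.18). No mutant library of these genes overlapped a WT library. Ppfia4, a liprin scaffold protein, was at 237, 238, 497 and 456 (1.00, SE 0.19). The difference of Evl was 0.65 with GC and length offsets.

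Among genes of innate immunity, Cfp, properdin, which stabilises the alternative complement convertase, was at 2338, 2378, 3892 and 4106 (0.76, SE 0.11). Unc93b1, which carries nucleic acid-sensing Toll-like receptors to endosomes, was at 5792, 5941, 8892 and 9346 (0.64, SE 0.11). The WT libraries of these genes were nearly equal. Sgsh, a lysosomal enzyme that degrades heparan sulfate, was at 282, 433, 826 and 781 (1.17, SE 0.22). Zfp219, a zinc finger protein, was at 891, 876, 1470 and 1578 (0.79, SE 0.13), or 0.37 with GC and length offsets.

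Ltf and Capn11 had the widest differences. Ltf encodes lactoferrin, an iron-binding protein of neutrophil secondary granules, and was at 56.7, 11.6, 305 and 846 (4.08, SE 0.66). The mutant libraries differed from each other as well, and the log2 ratio was 2.41 within the shared date and 6.07 between the other libraries. Capn11, a calpain protease known from testis, had 2 reads in WT against 89 in Zbtb16 lu/lu over both libraries. That is a ratio of 46.2 with a 95% exact binomial interval of 12.4 to 387, which covers counting error only. Capn11 was at 1.99, 0, 47.3 and 43.2. It passed the filter on low values only through the mutant libraries, where it is high, so its place among these genes and its ratio are a description. DESeq2 gave an adjusted p of 0.049 to Ltf and none to Capn11.

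**Figure D2:**
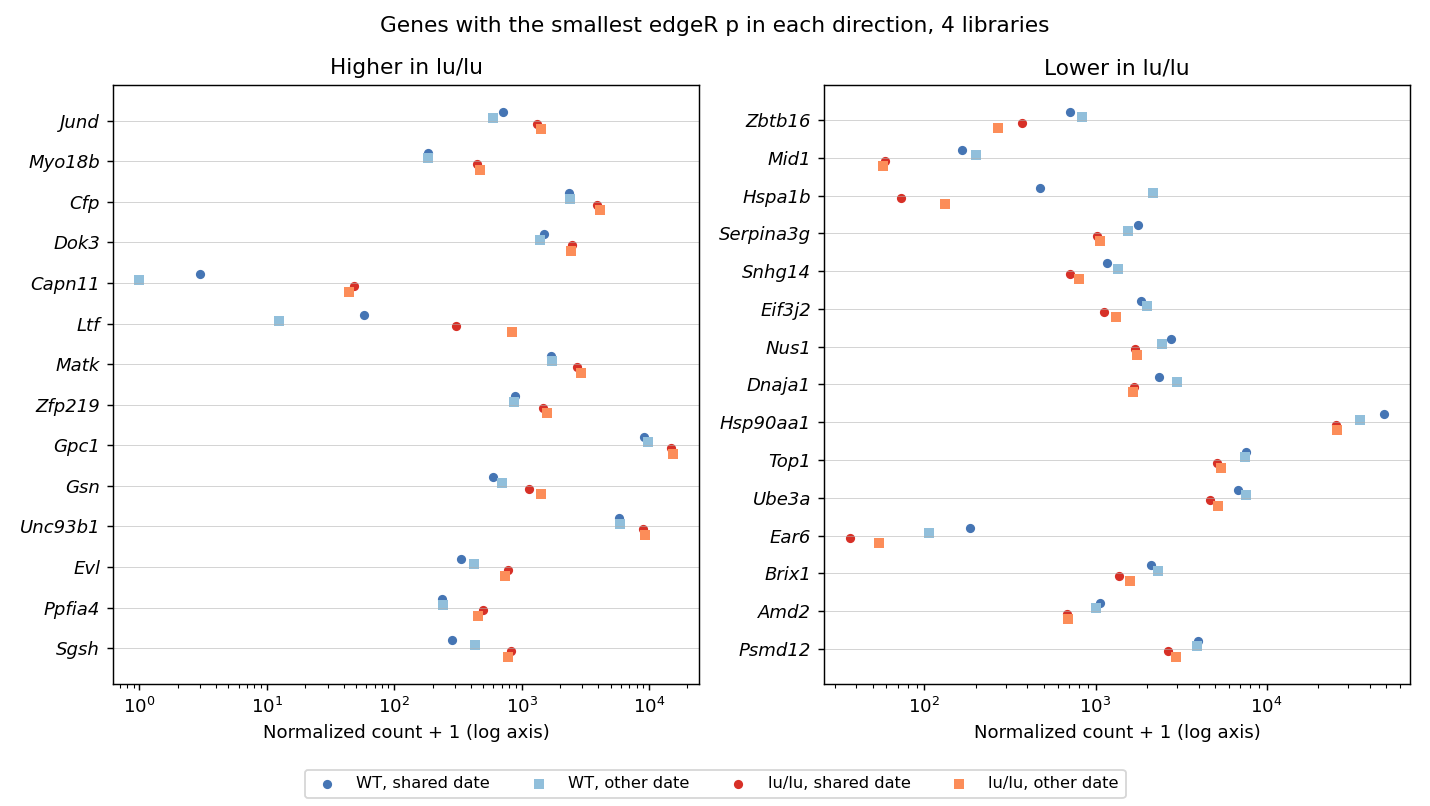
Normalized count plus 1 (log axis) in each of the 4 libraries for the genes described by name among the 15 with the smallest edgeR p in each direction; circles are the libraries of the shared date and squares those of the other dates, blue for WT and red or orange for Zbtb16 lu/lu. In every row both mutant points lie on the same side of both WT points, and the spread within a genotype is widest for Ltf, Hspa1b and Capn11.

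Of the 15 named genes lower in Zbtb16 lu/lu by the smallest p, Zbtb16 came first, and their edgeR adjusted p ran from 0.310 to 0.371. DESeq2 called all 15, with adjusted p from 4.5e-05 for Zbtb16 to 0.073 for Amd2. Mid1, a microtubule-associated ubiquitin ligase, was at 165, 199, 57.6 and 56.2 (-1.67, SE 0.28). Its mutant values were alike and far under the WT values. Serpina3g, a serpin of haematopoietic cells, was at 1781, 1543, 1022 and 1056 (-0.68, SE 0.13). Ear6, an eosinophil-associated ribonuclease, was at 184, 106, 36.0 and 53.2 (-1.70, SE 0.38). Beside it, 3 of 10 mast cell, basophil and eosinophil markers were lower in both mutant libraries (DESeq2 called 0), and their sum was 27435 to 32794 in WT and 24180 to 29506 in Zbtb16 lu/lu. Their part in the Ear6 difference was not tested.

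Some of the other lower genes serve the making and turnover of proteins. Brix1, needed for the large ribosomal subunit, was at 2111, 2318, 1367 and 1585 (-0.59, SE 0.13). Eif3j2, a gene for a subunit of translation initiation factor eIF3, was at 1852, 1995, 1122 and 1310 (-0.66, SE 0.13). Psmd12, of the proteasome regulatory particle, was at 3965, 3910, 2667 and 2936 (-0.49, SE 0.12). These 3 genes were lower in both mutant libraries by similar margins. Nus1, which takes part in dolichol synthesis for protein glycosylation, was at 2770, 2447, 1707 and 1735 (-0.60, SE 0.12). Top1, DNA topoisomerase I, was at 7593, 7443, 5146 and 5444 (-0.51, SE 0.11). Amd2, an S-adenosylmethionine decarboxylase gene of polyamine synthesis, was at 1065, 1002, 680 and 692 (-0.59, SE 0.14). Eif3j2 and Amd2 have close relatives in the genome that may share reads.

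Ube3a, an E3 ubiquitin ligase, and Snhg14, the long noncoding transcript that runs antisense into it, were lower together. Ube3a was at 6818, 7537, 4637 and 5175 (-0.55, SE 0.12), and Snhg14 at 1162, 1360, 710.4 and 799 (-0.74, SE 0.15). With GC and length offsets the differences were -0.31 for Ube3a and -0.46 for Snhg14, whose longest transcript is 31.0% GC. In GENCODE M21 (GRCm38) Ube3a spans chromosome 7 from 59228750 to 59311536 and Snhg14 from 59307924 to 59975759, so they overlap at their ends.

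Molecular chaperones were among the lists with the largest shares of lower genes. Cytosolic chaperones of the Hsp70, Hsp90 and Hsp40 families are switched on by heat shock factor, which binds the heat shock element, inverted GAA units in the promoter. Chaperones of the endoplasmic reticulum (ER) are switched on by the unfolded protein response through the ER stress element, CCAAT and CCACG held 9 bases apart. Promoters of 4 cytosolic genes and 1 ER gene of the list are shown because they carry these letters. The stretches are Hspa1b at chr17:34959279-34959398 (minus strand), Dnaja1 at chr4:40722288-40722407 (plus strand), Hsph1 at chr5:149636287-149636406 (minus strand), Chordc1 at chr9:18292197-18292316 (plus strand) and Hspa5 at chr2:34771974-34772093 (plus strand). They are stretches of the RefSeq promoter windows (GRCm38.p6, 250 bases before to 50 after the gene start), written along the gene's own strand, with the matched element in capitals.
Hspa1b: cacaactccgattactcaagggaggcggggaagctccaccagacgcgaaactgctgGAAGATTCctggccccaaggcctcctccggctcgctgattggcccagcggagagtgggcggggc
Dnaja1: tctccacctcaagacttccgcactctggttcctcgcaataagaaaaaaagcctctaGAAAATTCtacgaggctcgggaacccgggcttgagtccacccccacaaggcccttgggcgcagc
Hsph1: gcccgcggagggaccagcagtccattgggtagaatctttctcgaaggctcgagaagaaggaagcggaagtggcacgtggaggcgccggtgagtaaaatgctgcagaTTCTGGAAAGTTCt
Chordc1: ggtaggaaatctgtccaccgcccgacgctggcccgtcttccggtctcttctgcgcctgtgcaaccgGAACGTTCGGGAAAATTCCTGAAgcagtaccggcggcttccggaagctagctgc
Hspa5: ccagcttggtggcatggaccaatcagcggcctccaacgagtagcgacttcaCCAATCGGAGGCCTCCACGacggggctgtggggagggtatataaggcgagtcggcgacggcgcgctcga

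In Hspa1b and Dnaja1 the capitals are the 2-unit element GAANNTTC, which reads the same on both strands, and in Hsph1 and Chordc1 they are the 3-unit element, GAANNTTC followed by NNGAA, or its reverse complement (3 overlapping matches in Chordc1). Every 3-unit match also holds a GAANNTTC or TTCNNGAA match. A 3-unit element was found in 0.603% of all 32851 promoters and in 4 of the 26 cytosolic chaperone genes with a promoter entry (Hsph1, Chordc1, Hspd1 and Hspe1). A 2-unit element, GAANNTTC or TTCNNGAA, was in 15.1% of promoters and in 13 of those 26. The ER stress element was in 0.119% of promoters and in 7 of 19 ER chaperone genes (Calr, Canx, Creld2, Dnajc3, Hsp90b1, Hspa5 and Pdia6). Of tested genes, 10995 had a promoter entry. Among those with a 3-unit heat shock element, 26 of 64 (40.6%) were lower in both mutant libraries and 7 (10.9%) higher. For the ER stress element 8 of 21 (38.1%) were lower and 2 (9.52%) higher. The 4 cytosolic and 7 ER chaperone genes named above are among these 64 and 21, so these shares partly repeat the lists. Shares without them were not counted. Of tested genes without the 3-unit element 22.4% were lower. For the 2-unit heat shock element the share of lower genes was 23.2%, near that of all genes.

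Of 33 genes tested in the heat shock and chaperone list, which is cytosolic but for mitochondrial members such as Hspe1, 25 were lower in both Zbtb16 lu/lu libraries and 0 higher, and the list's median log2 fold change was -0.36 against -0.02 over all genes. DESeq2 called 6 of them lower, and edgeR called 0. Hspa1b, an inducible Hsp70, was at 471, 2170, 72.0 and 131 (-3.70, SE 0.65, adjusted p = 0.310). Hspa1a, its near-identical neighbour, was at 158, 2305, 64.8 and 126 (-3.68). Reads of these genes may be split between them, and WT-2 was far above WT-1 in both. Without WT-2 the Hspa1b difference was -2.21. Hsp90aa1, an inducible Hsp90, was at 48352, 35308, 25503 and 25640 (-0.71, SE 0.16, adjusted p = 0.343), and its difference was -0.47 without WT-1.

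Hspa8, the constitutive Hsp70, was at 73497, 44072, 32189 and 34437 (-0.82, SE 0.21). Its log2 ratio was -1.19 within the shared date and -0.36 between the other libraries. Dnaja1, an Hsp40 co-chaperone, was at 2352, 2975, 1685 and 1650 (-0.68, SE 0.14). Mutant values of both genes were nearly equal, and the WT values were higher and apart. Chordc1, an Hsp90 co-chaperone, was at 6900, 4531, 3240 and 3518 (-0.76, SE 0.19). The Chordc1 log2 ratio was -1.09 within the shared date and -0.37 between the other libraries. Hsph1, an Hsp110 that exchanges nucleotide on Hsp70, was at 10214, 4047, 2783 and 2491 (-1.43, SE 0.35), with WT-1 far above WT-2. Hspe1, the mitochondrial Hsp10, was at 4168, 3302, 2281 and 2671 (-0.59). Hsf1, the heat shock factor itself, was at 1836, 1534, 1776 and 1540, with overlapping genotypes.

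Of 22 ER chaperone and unfolded protein response genes, 14 were lower in both mutant libraries and 0 higher (median -0.41), and DESeq2 called 2 lower. Hspa5, the ER Hsp70 BiP, was at 138662, 78317, 64188 and 65879 (-0.74, SE 0.23, adjusted p = 0.434). Hsp90b1, the ER Hsp90, was at 88802, 64522, 52480 and 51639 (-0.56, SE 0.16). In both genes WT-1 stood above the other WT library by more than that library stood above the mutant libraries. Pdia3, a protein disulfide isomerase, was at 38338, 31702, 24396 and 26591 (-0.46). Xbp1, Atf4 and Ddit3, transcription factors of the response, had log2 fold changes of -0.14, -0.15 and -0.02.

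The size of both chaperone differences rested in part on 1 library. Without WT-1 the median of the ER list was -0.11 and that of the cytosolic list -0.23, whereas without WT-2 they were -0.67 and -0.50. Within the shared date the medians were -0.67 and -0.53, and between the other libraries -0.10 and -0.21. With GC and length offsets the medians were -0.40 and -0.34, and 12 ER and 17 cytosolic genes were then lower in both mutant libraries.

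**Figure D3:**
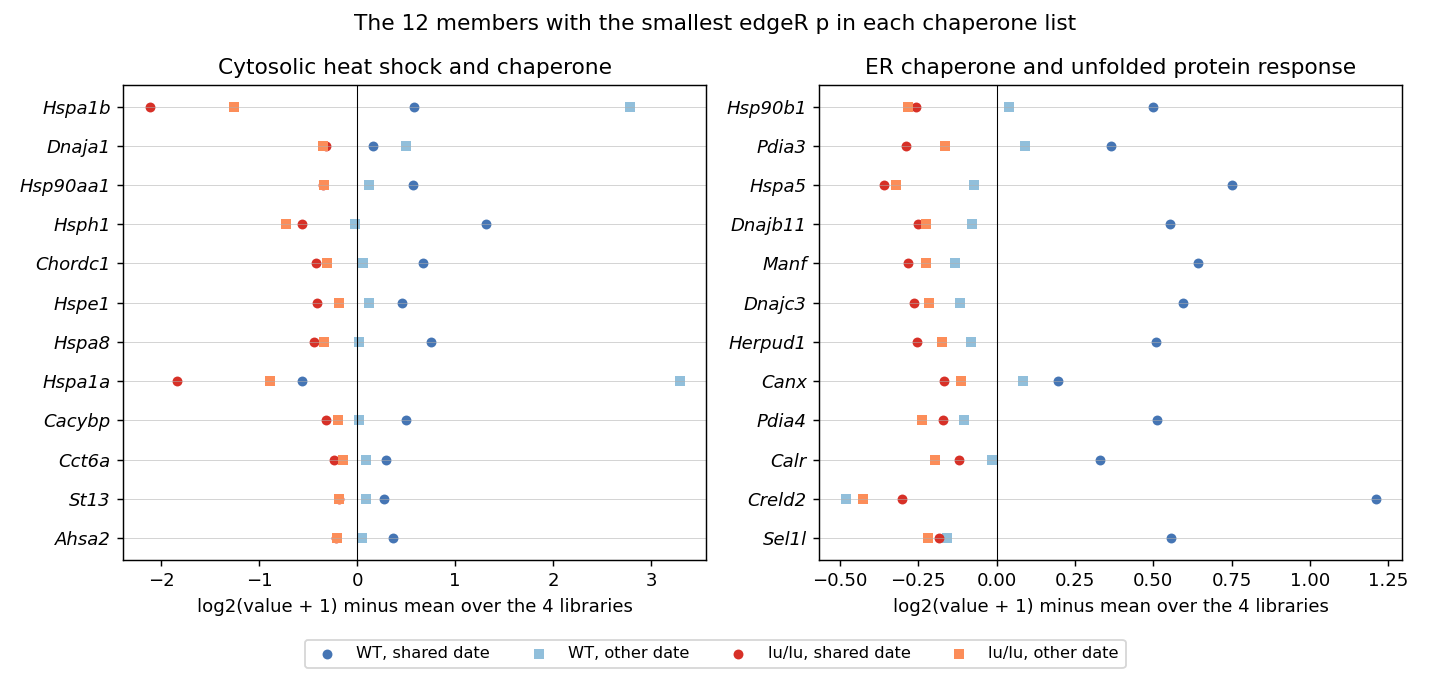
log2 of the normalized count plus 1, minus its mean over the 4 libraries, for the 12 members with the smallest edgeR p of each chaperone list; colours and symbols stand for the 4 libraries. The mutant points lie to the left of both WT points in every row but that of Creld2, as for Hsp90aa1 (25503 and 25640 against 48352 and 35308), and for most ER genes WT-1 (dark blue) lies far to the right of WT-2.

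Of 36 ribosome biogenesis genes 23 were lower in both mutant libraries and 0 higher (median -0.23), with 2 lower DESeq2 calls. Ncl, nucleolin, was at 46328, 46711, 34597 and 34865 (-0.42, SE 0.11). Npm1, nucleophosmin, was at 19709, 18105, 13474 and 15990 (-0.36). Both nucleolar genes were lower without overlap. Of 30 mitosis genes 23 were lower and 0 higher (median -0.26), with 1 DESeq2 call, Hmmr, a spindle-binding protein, at 5044, 6019, 4005 and 3911 (-0.48, SE 0.13). Bub1, a spindle checkpoint kinase, was at 4974, 4601, 3443 and 3770 (-0.41), and Ccnb1, cyclin B1, at 2426, 2714, 2060 and 1985 (-0.35). Without WT-1 the medians were -0.12 for ribosome biogenesis and -0.36 for mitosis, and without WT-2 they were -0.34 and -0.20. With GC and length offsets they were -0.24 and -0.17, and the Bub1 difference was -0.26.

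Of 40 genes of DNA replication tested 12 were higher and 3 lower in both mutant libraries, the median was 0.04 (0.11 without WT-1 and 0.00 without WT-2) and DESeq2 called 1 higher. Cdt1, a replication licensing factor, was at 3783, 3093, 4742 and 5123 (0.52, or 0.32 with GC and length offsets). Ccne2, cyclin E2, was among the lower ones, at 2283, 2229, 1556 and 1929 (-0.37). Among cyclin D, cyclin G and CDK inhibitor genes 4 of 12 were higher and 2 lower, with 1 DESeq2 call, Ccng2, an atypical cyclin linked to arrest, at 712, 866, 1281 and 1333 (0.73).

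Proteasome subunit genes were lower in 16 of 38 and higher in 2, with a median of -0.11 and 1 lower DESeq2 call. That median was -0.32 within the shared date and 0.04 between the other libraries, and it was -0.23 without WT-2 and -0.06 without lu/lu-1. Without WT-1 it was near 0. Psmb9, an immunoproteasome subunit, was one of the higher ones, at 3077, 2880, 3734 and 3687 (0.32). Nuclear genes of oxidative phosphorylation had a median of -0.02, with 7 of 94 higher, 17 lower and no DESeq2 call. Their median was -0.20 within the shared date and 0.17 between the other libraries. The 13 mitochondrially encoded protein genes were listed at 0 in every library.

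Replication-dependent histone genes, which are transcribed in S phase and whose mRNAs normally lack a poly(A) tail, had a median log2 fold change of 0.86. Of 69 tested, 65 were higher in both mutant libraries and 0 lower, and 35 of the 152 higher DESeq2 calls were histone genes. Their summed counts were 295905 to 398197 in WT and 480604 to 588015 in Zbtb16 lu/lu. By class the median log2 fold change was 1.23 for 19 H2a genes, 1.08 for 13 H4 genes, 0.84 for 12 H3 genes, 0.77 for 19 H2b genes and 0.34 for 6 H1 genes. Hist1h4f was at 7640, 5347, 11833 and 15605 (1.08). Histone genes are near-identical copies, so the split of reads among them is uncertain. The list's median was 0.43 within the shared date and 1.37 between the other libraries, and the genotypes stayed apart in 61 of 69 genes with GC and length offsets.

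Of 17 mature neutrophil genes 10 were higher in both mutant libraries and 0 lower (median 0.80), with 2 higher DESeq2 calls, Ltf and Cd177. The list's median was 0.50 within the shared date and 1.92 between the other libraries. It was 1.80 without WT-1, 0.62 without WT-2, 1.28 without lu/lu-1 and 0.64 without lu/lu-2. Of the 10, Mmp9, Ly6g and Retnlg reached the filter only with the help of the mutant libraries, where they are high, so the count of 10 and the median partly follow from the filter. Over the 14 genes with a mean of at least 100, 7 were higher and the median was 0.48. Cd177, a neutrophil surface protein, was at 235, 120, 359 and 621 (1.47, SE 0.36). Camp, cathelicidin, was at 361, 68.5, 478 and 1435, and Ngp, another secondary granule protein, at 228, 71.4, 366 and 1080. These granule genes were lowest in WT-2 and highest in lu/lu-2, and their log2 ratios within the shared date were 0.40 for Camp and 0.68 for Ngp. S100a8 and Lcn2, also abundant in neutrophils, overlapped between genotypes (8098, 3967, 5199 and 9219 for S100a8). The summed neutrophil markers were 23103 to 28260 in WT and 24543 to 38751 in Zbtb16 lu/lu, and Ly6g, the antigen bound by Gr-1 antibody in the lineage depletion, was at 2.98, 4.82, 19.5 and 21.1. The part of these markers in the Ltf difference was not tested.

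Of 18 monocyte and macrophage genes 14 were higher and 0 lower (median 0.44), and DESeq2 called 4 higher: Cfp, Lyz2, Psap and Ccl9. Lyz2, lysozyme, was at 4398, 5574, 7260 and 8992 (0.70, SE 0.16). Ccl9, a chemokine, was at 5678, 8881, 10753 and 12815 (0.69). Its log2 ratio was 0.92 within the shared date and 0.53 between the other libraries. The list's median was 0.45 within the shared date and 0.40 between the other libraries. The summed monocyte markers were 84612 to 98289 in WT and 116841 to 129217 in Zbtb16 lu/lu. Irf8, the transcription factor that directs GMPs toward monocytes, was at 9786, 9305, 13887 and 14277 (0.56, SE 0.11, adjusted p = 0.310), and it was the only GMP marker among the DESeq2 calls. Of the GMP markers 8 of 17 were higher and 1, Ms4a3, lower (median 0.14), with Elane, neutrophil elastase, at 37949, 36604, 48674 and 47604 (0.37). With GC and length offsets the median of the GMP markers was 0.06 and the Elane difference 0.18.

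Of 25 genes of adhesion and Fc receptor signalling 13 were higher and 3 lower (median 0.41), and DESeq2 called 10 higher. The median was 0.19 without WT-1, and also 0.19 without lu/lu-2. Fcer1g, the shared gamma chain of Fc receptors, was at 1625, 1702, 2239 and 2490 (0.51), and Selplg, the selectin ligand PSGL-1, at 5692, 5522, 7625 and 7749 (0.46). Dok3, Matk, Gsn and Evl are in this list, which was written with earlier results of these data known. Of 34 lysosome genes 23 were higher and 3 lower (median 0.16, or 0.10 with GC and length offsets), with 5 higher DESeq2 calls. Pld4, a phospholipase D family member of endolysosomes, was at 1152, 1428, 2063 and 2028 (0.66). Of 13 genes of MHC class I antigen presentation 9 were higher and 0 lower (median 0.27), with 2 higher DESeq2 calls. Tapbp, tapasin, was at 3901, 4053, 5405 and 5579 (0.47), and Tap2, a peptide transporter subunit, at 3935, 3900, 5412 and 5284 (0.45). With GC and length offsets the differences were 0.28 for Tapbp and 0.27 for Tap2.

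Of 29 cytokine receptor genes 12 were higher and 3 lower (median 0.08), with 3 higher DESeq2 calls. The median was 0.14 without WT-1, 0.16 without lu/lu-1 and 0.06 with GC and length offsets. Csf2ra, the GM-CSF receptor alpha chain, was at 1273, 1059, 1980 and 1878 (0.73, SE 0.14). Il3ra, the IL-3 receptor alpha chain, was at 493, 487, 785 and 912 (0.79, SE 0.16), or 0.46 with GC and length offsets. Both are alpha chains that pair with the common beta chain. Il18r1, an IL-18 receptor chain, was lower, at 28.8, 31.8, 4.11 and 7.03 (-2.42), and it passed the filter only through the WT libraries.

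AP-1 and immediate early genes were split. Of 26 tested 7 were higher and 0 lower in both mutant libraries, with 4 higher DESeq2 calls (Jund, Ier2, Klf11 and Junb). Ier2, a serum-induced gene, was at 1324, 1053, 1853 and 1963 (0.68), and Junb at 1107, 644, 1410 and 1611 (0.79), or 0.36 and 0.39 with GC and length offsets. Fos, the partner of Jun proteins in AP-1, was at 4281, 11500, 7170 and 6289 and Klf2 at 202, 1182, 319 and 349, so that WT-2 lay above and WT-1 below both mutant libraries. The list's median was 0.13 with all libraries, 0.59 within the shared date and -0.15 between the other libraries. It was -0.06 without WT-1 and 0.49 without WT-2, and 0.00 with GC and length offsets. Of 24 interferon-stimulated genes 9 were higher and 0 lower (median 0.12), with no DESeq2 call, and of 10 Hox genes 5 were higher and 0 lower (median 0.36). The interferon median was 0.05 without WT-1 and 0.32 without WT-2, and 0.21 with GC and length offsets. Of those 5 Hox genes 1, Hoxa4, likewise passed the filter only with the help of the mutant libraries. The Hox median was 0.16 without WT-1 and 0.21 without lu/lu-1. Of 29 myeloid transcription factor genes 9 were higher and 5 lower, with 3 higher DESeq2 calls, and with GC and length offsets 8 were higher and 9 lower.

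Cytosolic ribosomal protein genes were higher in 37 of 90 and lower in 2, with a median of 0.13 (0.08 without lu/lu-2) and 2 higher DESeq2 calls. Rplp1, an acidic stalk protein, was at 19628, 14535, 24053 and 30854 (0.68). Small nucleolar and Cajal body RNA genes were higher in 15 of 115 and lower in 28, with 2 higher DESeq2 calls and 1 lower. Snord14d and Snord14e, which lie in introns of Hspa8, were at 302, 885, 251 and 240 and at 274, 734, 253 and 190.

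**Figure D4:**
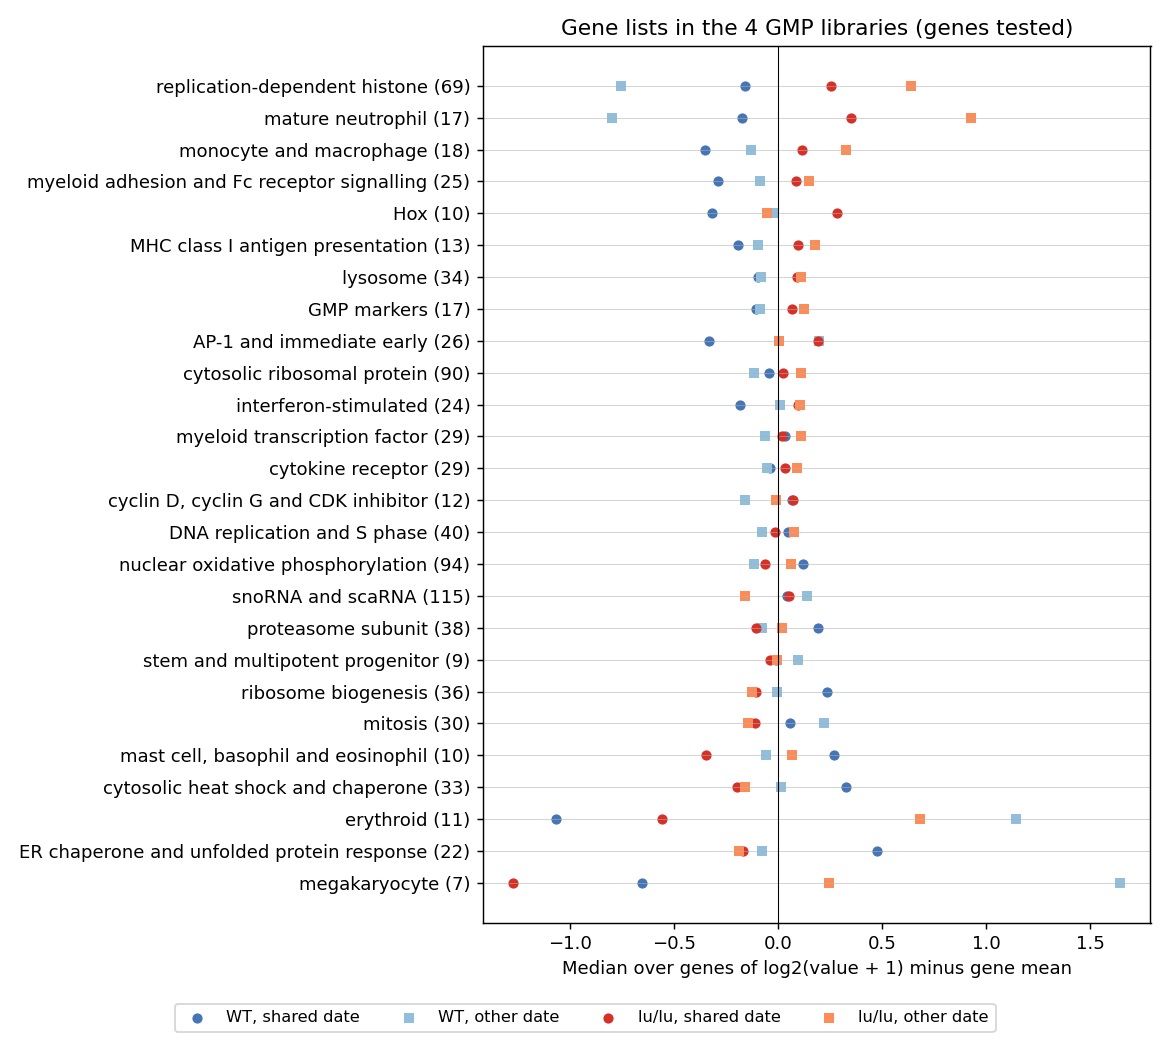
For each gene list with at least 7 genes tested (number in brackets), the median over its genes of log2 of the normalized count plus 1, minus the gene's mean over the 4 libraries; circles are the shared date, squares the other dates, blue WT and red or orange Zbtb16 lu/lu. For histone, monocyte, MHC class I and lysosome lists both mutant points lie right of both WT points, whereas for erythroid and megakaryocyte lists the libraries of the shared date lie left of the other libraries.

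The higher and the lower genes differed in base composition. The median GC content of the longest annotated transcript was 55.6% for the 1070 genes higher at an unadjusted p under 0.05 in edgeR, 43.7% for the 937 lower genes and 49.3% over all genes tested. In the decile of genes with the highest GC content (median 59.6%) 48.8% were higher and 3.38% lower in both mutant libraries, whereas in the decile with the lowest (39.1%) 6.56% were higher and 36.8% lower. The median log2 fold change went from -0.22 in the lowest decile to 0.26 in the highest. The gradient was present within the shared date (-0.08 and 0.16) and between the other libraries (-0.28 and 0.37). With the offsets fitted per library the same deciles had medians of -0.01 and -0.03. The offsets were fitted to each library's trend with GC content and length, so medians near 0 follow from the fit. Gene length had a smaller range of medians, from -0.07 to 0.02 over deciles.

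**Figure D5:**
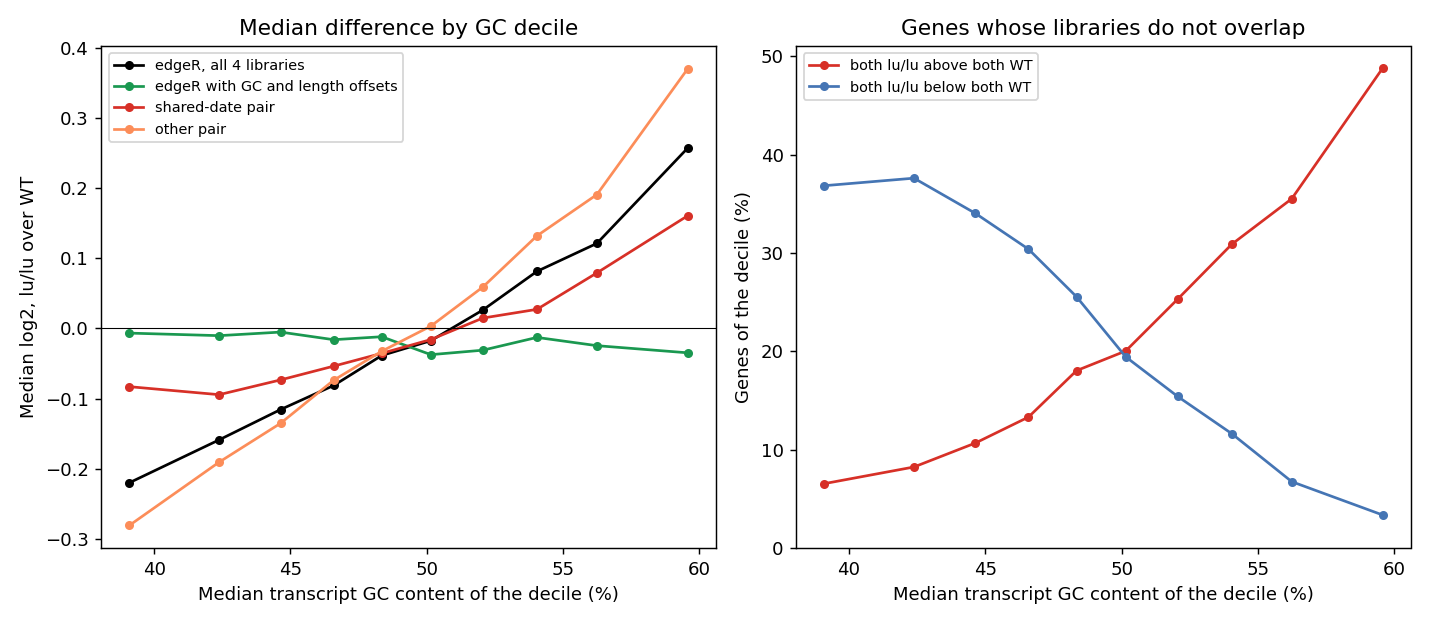
Left, the median log2 of Zbtb16 lu/lu over WT by decile of transcript GC content, for the edgeR fit of all 4 libraries, the same fit with GC and length offsets, and the 2 pairs of libraries without a test; right, the percent of genes of each decile whose libraries did not overlap. The difference goes from -0.22 to 0.26 across deciles without offsets. It stays near 0 with them, which follows from fitting the offsets to this trend. The shares of higher and lower genes cross near 50% GC.

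Genes with provisional names made up 32.1% of the 937 lower genes, 26.3% of the 1070 higher genes and 34.2% of all genes tested. Pseudogenes made up 21.2% of the lower genes, 6.36% of the higher genes and 15.6% of all. The provisional genes with the smallest p among the lower ones, Gm13886, Calr-ps, Gm5611, Gm9892 and Gm11516, are all annotated as processed pseudogenes, copies of spliced transcripts that can share reads with their parent genes. Calr-ps was at 5843, 6031, 4174 and 4007. Among the higher ones, Gm44297 and Gm44466 lie inside Hist1h2af and Hist1h2ap on the opposite strand, and Gm44297 was at 431, 305, 886 and 1504.

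The same genes were looked up in 416b cells, a mouse myeloid progenitor line, with PLZF-Flag or Empty vector (1 library each, no test). Zbtb16 was at 382 in Empty vector and 2541 in PLZF-Flag. Of the 15 higher genes 11 were listed, 5 of them lower and 6 higher with PLZF-Flag, and of the 15 lower genes 12 were listed, 3 lower and 9 higher. Zbtb16, which the PLZF-Flag vector itself supplies, is one of those 9, and 8 of the other 11 were higher. Of all tested genes listed in 416b cells 50.1% were higher, and 7 of those 8 had log2 ratios of at most 0.17. Cfp was at 1523 and 719 (log2 ratio -1.08) and Sgsh at 721 and 241 (-1.57), both lower with PLZF-Flag. Matk was higher (14.5 and 43.0), while Jund and Dok3 had ratios of 0.10 and 0.03. Hsp90aa1 and Dnaja1 both had a ratio of 0.07.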

How the data were processed

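Per the labels and the study's methods, RNA of sorted GMPs was sequenced with a stranded total RNA kit after ribosomal RNA removal, reads were aligned to mm10 with Subread and counted with featureCounts, and the authors divided the counts by DESeq2 size factors. The deposited signal is thus normalized counts. In each library 100% of values were whole multiples of the smallest value within 1e-06 of a read (size factors 0.973 to 1.037), so reads were recovered. The authors' means, fold changes and p-values in the same table were not used. The main test was edgeR 4.0.16 (glmQLFit and glmQLFTest, genotype as the only term, offsets from the size factors, Benjamini-Hochberg over 20531 genes, threshold 0.08). DESeq2 1.42.0 and limma 3.58.1 (log2 of the value plus 1) in R 4.3.3 were alternatives. Log2 ratios of pairs and of 416b cells used a pseudocount of 1.

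Named were Zbtb16, Ltf, Jund, Cfp, the 15 genes of each direction with the smallest p without histone and provisional names, and members of lists by p. Of the higher ones 1 is not reported here. Members, lists and rules were chosen with earlier results of these data known. Mpo, Hspa1a, Hspa8, Hspe1, Hsf1, Xbp1, Atf4, Ddit3, Npm1, Camp, S100a8, Lcn2, Ly6g, Retnlg, Ms4a3, Fcer1g, Selplg, Fos and Klf2 fell outside that rule and were picked after their values were seen. GC content, length and position came from GENCODE M21 and matched 97.9% of tested genes. Of 20531 tested genes 48 repeat a symbol, and lists used the first entry. ChIP-seq and ATAC-seq files were not used here.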

Additional observations from a re-analysis of the deposited data

How the results depend on the processing

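The edgeR count of 0 called genes was the same with limma-trend at both pseudocounts, TMM, total reads, total reads leaving out histone genes with the 10 genes of most reads, no filter, a mean of at least 100, a robust prior, GC and length offsets and an adjusted p under 0.05. DESeq2 called 210 genes, and 154 with GC and length offsets, of which 90 were shared. Leaving out 1 library moved the edgeR count between 1 and 4616 and the DESeq2 count between 0 and 1137. In edgeR 4616 genes were called without WT-1, 2653 without WT-2, 54 without lu/lu-1 and 1 without lu/lu-2. DESeq2 then called 1137, 890, 51 and 0. In these fits the lone library is assumed to vary like the pair that is left, and the mutant pair is the closer one. At an unadjusted p under 0.05 the share of higher genes was 53.3% in the main fit. It was 60.3% with total reads leaving out histone genes and those 10 genes. With total reads it was 50.4%, and at a mean of at least 100 it was 49.8%.

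The Zbtb16 log2 fold change was -1.27 under DESeq2, past the threshold there, and -1.51 to -1.05 without 1 library. It was -0.93 within the shared date and -1.62 between the other libraries. The other 29 genes named for the smallest p had the same sign in all 462 alternative values. They were chosen from these same libraries, and their genotypes did not overlap. Leaving out a library or taking a pair therefore could not change their sign. Among the genes named for the smallest p, GC and length offsets moved 8 by over 1.5 times, including Jund, Matk, Zfp219, Gpc1, Evl, Snhg14 and Ube3a. They also moved members of lists by as much, such as Elane, Il3ra, Tapbp, Tap2, Cdt1, Ier2, Junb and Bub1. DESeq2 with offsets or fewer libraries, and every alternative for a list, were chosen after seeing the data. No paired analysis was possible because no replicate number stands in the column names, and the 1 shared date pairs only 2 libraries. With 2 libraries per genotype, 1 of them WT and apart from the other, small differences cannot be told from the spread between libraries.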

Other observations

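Genes of chromosome 9 that start within 5 Mb of Zbtb16 were counted, a region chosen after gene values were seen. Of 128 tested genes there, 31 were higher and 28 lower in both Zbtb16 lu/lu libraries, and DESeq2 called 3, namely Dlat, Il10ra and H2afx. Over all 1129 tested genes of the chromosome, that window included and Zbtb16 left out, 227 were higher and 248 lower. The median absolute log2 fold change was 0.25 in the window and 0.20 over the chromosome. Dlat, a subunit of pyruvate dehydrogenase, was lower, at 4396, 3927, 2871 and 3084 (log2 fold change -0.48). Il10ra, an IL-10 receptor chain, was higher, at 322, 561, 833 and 877 (0.95). H2afx, a histone variant gene, was higher too, at 3363, 2854, 4082 and 5087 (0.56, or 0.15 with GC and length offsets).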
